A study of Gasterosteus aculeatus with 17 samples.

Results

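Gill expression was compared between 4 three-spined sticklebacks (Gasterosteus aculeatus) from a lake that were held in fresh water and 4 from a sea coast that were held in marine water. These fish were chosen by their labels alone, as every fish that was not transferred, and they are 8 of the 17 fish in the series. The kept freshwater fish carry the numbers 1, 2, 4 and 5, and the kept marine fish the numbers 2, 3, 4 and 5. The other 9 fish had been transferred for 4 days: 4 freshwater fish to marine water and 5 marine fish to fresh water. All fish were wild males in breeding dress, collected in the same summer from a single lake (Mashinnoye Lake) and a single stretch of coast (Kandalaksha Gulf), and no treatment other than water is labelled. The kept fish were also held captive. In the own-water comparison population, site of capture, life history and water differ together and cannot be told apart. Each library holds polyadenylated RNA of the gills of a separate individual, so the spread between libraries is a spread between animals.

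The gill is the organ through which a bony fish exchanges most of its salt with the water. In the sea, ionocytes of the gill epithelium secrete sodium chloride, and in fresh water they take ions up. Sticklebacks living in the sea are the ancestral form, and lake populations descend from marine fish that entered fresh water after the ice retreated. Comparing both forms, each in its own water, sets the inherited and the acquired differences between their gills side by side without separating them.

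Depth differed between the groups, and in kept fish it differed together with population and water. Kept freshwater libraries held 23609866 to 28960967 counts and kept marine libraries 17993109 to 19450343, with no overlap (exact permutation test, two-sided, p = 0.0286, the smallest that 4 against 4 fish allow). Moved marine libraries were shallower, at 6932688 to 16108405 counts, and moved marine fish 2 was the shallowest. Enough reads for a test were found for 18238 of the 22456 genes in the counts. Values are given as CPM, the usual per-library scaling of read counts, with TMM factors, and differences as log2 kept freshwater minus kept marine fish unless stated. The gene IDs in the counts are not paired with names, and no ID was found among the reference genes at hand, so genes are given by ID, no role can be attached to them and the markers of gill cell types could not be checked. In these bulk samples, fewer cells of a type and less RNA per cell cannot be told apart.

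On the line between the populations, kept marine fish 5 stood apart from its group. Each fish was placed on the line between the kept groups, with 0 at the mean of kept marine fish and 1 at the mean of kept freshwater fish over all tested genes, and each kept fish was left out of the means it was placed on. Kept marine fish 2, 3 and 4 lay at 0.115, 0.101 and 0.0816, while kept marine fish 5 lay at 0.379. Kept freshwater fish 1, 2 and 4 lay at 0.884, 0.929 and 0.979, and kept freshwater fish 5 at 0.687. The fish numbered 5 were thus the fish of each kept group that lay nearest to the other kept group, and all kept freshwater fish still lay above all kept marine fish.

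**Figure D1:**
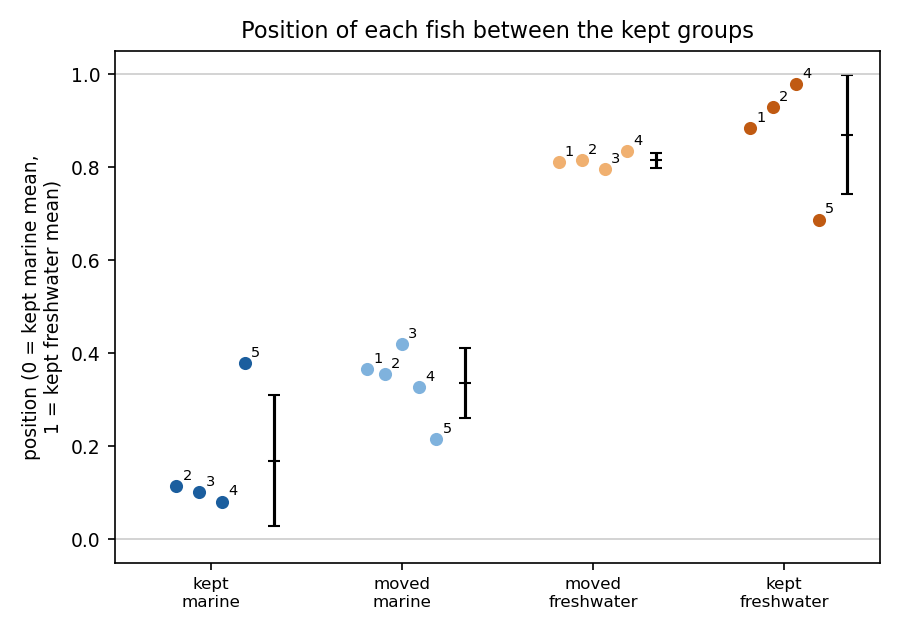
Position of each of the 17 fish (points, with the fish number) between the mean of kept marine fish (0) and the mean of kept freshwater fish (1), over 18238 genes; black bars are the group mean ± SD (n = 4, 5, 4 and 4). Freshwater fish of both groups lie between 0.687 and 0.979, marine fish of both groups between 0.0816 and 0.42, and kept marine fish 5 lies among the moved marine fish.

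Distances between whole profiles also separated the groups, except at the edges. Over 12797 genes averaging 5 CPM or more, the root mean square log2 difference was 0.462 to 0.581 within the 6 pairs of kept freshwater fish and 0.474 to 0.656 within the 6 pairs of kept marine fish. Across the 16 pairs of a kept freshwater with a kept marine fish it was 0.641 to 1.01, with a median of 0.785. The ranges overlapped slightly. Kept marine fish 4 had the largest mean distance to its own group (0.614), and kept marine fish 5 the smallest to the freshwater fish (0.678, against 0.813 to 0.898 for kept marine fish 2, 3 and 4). Kept marine fish 5 was also closer to moved marine fish 5 (0.494) than to any kept marine fish (0.531 to the nearest). Kept freshwater fish 2 was likewise nearest to a moved fish, moved freshwater fish 3 (0.474), by a small margin over the nearest kept freshwater fish (0.479). In a principal component analysis of the 8 kept fish, the first component held 43.1% of the variance and separated the groups, with freshwater fish at 27.6 to 60.2 and marine fish at -65.4 to -20.9. The second held 14.9% and was led by kept marine fish 4, at 62.8, with the other kept marine fish at -36.4 to -13.3. What sets kept marine fish 4 and 5 apart was not tested. Counts of called genes, positions, shares of counts, near-absent genes and the spread within groups are also given without kept marine fish 5.

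A broad set of gill genes differed between the populations in their own waters, mostly by less than 2-fold. With edgeR's quasi-likelihood test and a Benjamini-Hochberg adjusted p below 0.05 as threshold, 3517 genes (19.3% of those tested) passed: 1948 (10.7%) were higher and 1569 (8.6%) lower in kept freshwater fish. The median size among them was 0.89 log2 units, against 0.372 over all tested genes. A difference over 2-fold was found for 1445 of the 3517 genes and over 4-fold for 353, of which 227 were higher and 126 lower in freshwater fish. Beyond 16-fold there were 33 higher and 23 lower genes. Before adjustment, 6244 genes had a p below 0.05. Fitted on the kept fish alone, edgeR called 3005 genes (1633 higher, 1372 lower), of which 185 and 85 differed by over 4-fold.

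Most of the called genes separated the fish completely. In 2648 of the 3517 genes (75.3%) every fish of a kept group lay above every fish of the other, as it did in 21.7% of all tested genes. The genes were called on these same fish, and a call favours groups that do not overlap, so the higher share is a description. Of the 869 called genes that did overlap, 567 were separated once kept marine fish 5 was set aside and 480 once kept freshwater fish 5 was set aside, while each of the other fish accounted for 55 to 110. Without kept marine fish 5 edgeR called 4091 genes (2232 higher, 1859 lower), of which 291 and 180 differed by over 4-fold, and without both fish numbered 5 it called 4387 (2333 higher, 2054 lower). Without kept freshwater fish 2 or 4, in contrast, 2267 and 2179 genes were called, a change of over 1.5 times, with 888 and 827 lower genes, and without kept marine fish 3 there were 999 lower genes. Leaving out kept marine fish 4 gave 2361 called genes.

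The balance of directions differed between 3 classes of abundance, but did not change steadily with it. Among 5614 genes with a mean under 5 CPM over the kept fish, 686 were called, and 59.6% of these were higher in freshwater fish. Among 11027 genes between 5 and 100 CPM it was 56.1% of 2389 called genes. Among the 1597 most abundant genes, at 100 CPM or more, 442 were called and 44.8% of these were higher, that is 198 higher and 244 lower. The share for abundant genes was 39.2% to 49.4% under 7 alternative scalings, tests and choices of fish. It stayed below that of the other classes in each of them. With the fish number as a replicate block, the middle class (60.9%) exceeded the scarce class (56.6%). By deciles of mean CPM over all fish, lower genes outnumbered higher ones in decile 1 (4.66% against 4.28%), 8 (12.4% against 10.8%) and 10 (14.7% against 12.6%). Higher genes led in all other deciles, among them decile 9 (13.8% against 11.3%). A larger share of genes was called where counts were higher, from 12.2% under 5 CPM to 27.7% at 100 CPM or more. With all libraries thinned to the depth of the shallowest, 2850 own-water genes were called, of which 354 were under 5 CPM. Of the 353 genes over 4-fold, 180 had means under 5 CPM, 147 lay between 5 and 100 CPM, and 26 were among the most abundant.

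**Figure D2:**
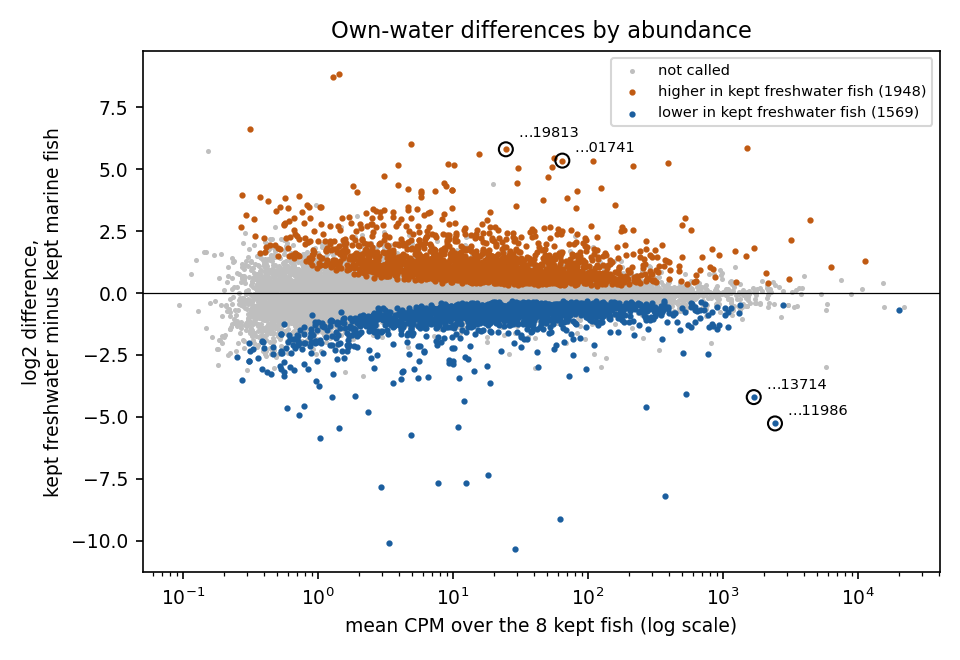
Log2 difference between kept freshwater and kept marine fish (vertical axis) against the mean CPM over the 8 kept fish (horizontal, log scale) for 18238 genes; orange points are 1948 genes higher and blue points 1569 genes lower in freshwater fish by edgeR's adjusted p, grey points were not called. Circles mark the 4 genes with the widest gaps, of which 2 are among the most abundant transcripts and lower in freshwater fish.

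As a share of the gill transcriptome, the 1948 higher genes held 16.3% ± 1.93 of all counts in kept freshwater fish (SD, n = 4) and 7.33% ± 0.988 in kept marine fish (n = 4). The 1569 lower genes held 9.03% ± 0.963 and 15.9% ± 1.26. The kept marine shares were 6.85% ± 0.276 and 16.6% ± 0.289 without fish 5 (SD, n = 3). Since the genes were chosen on these fish, the contrast in their shares is a description. The moved fish, whose expression was not compared in the choice, showed the same order in their means. The higher genes held 13.6% ± 0.42 of counts in moved freshwater fish (n = 4) and 9.61% ± 0.938 in moved marine fish (n = 5). The lower genes held 9.18% ± 0.51 and 15.3% ± 3.25. For the lower genes moved marine fish 2 was at 20.8%, and the other moved marine fish at 13.0% to 15.6%. In moved marine fish 2 the lower genes ENSGACG00000011986 and ENSGACG00000013714 alone were at 66700 and 48900 CPM. The shares were not computed without these genes.

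The genes with the widest empty gap between the kept groups were then taken, the first 2 in each direction. ENSGACG00000001741 was at 88.6, 90.8, 213 and 111 CPM in kept freshwater fish 1, 2, 4 and 5, and at 3.98, 3.44, 0.697 and 4.26 CPM in kept marine fish 2, 3, 4 and 5. The groups lay far apart, and within the marine group kept marine fish 4 was the lowest. The log2 difference was 5.35 (SE 0.78, edgeR adjusted p = 0.00037). ENSGACG00000019813 was at 52.7, 75.1, 29.7 and 36.3 CPM in the freshwater fish and at 1.47, 0.172, 0.482 and 1.32 CPM in the marine fish, again with no overlap. Its log2 difference was 5.81 (SE 1.32, edgeR adjusted p = 0.0068), and it missed the threshold in 1 of 31 alternatives, limma voom (adjusted p = 0.25). This gene was not uniformly high in the lake population: moved freshwater fish 1 was at 0.164 CPM, beside 82.6, 248 and 10.1 CPM in moved freshwater fish 2, 3 and 4.

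In the other direction, 2 of the abundant transcripts of the marine gill were far lower in the lake fish. ENSGACG00000011986 was at 3560, 3660, 6030 and 5690 CPM in kept marine fish 2, 3, 4 and 5, and at 120, 181, 62.7 and 127 CPM in kept freshwater fish 1, 2, 4 and 5. The log2 difference was -5.27 (SE 0.72, edgeR adjusted p = 0.00023). ENSGACG00000013714 was at 2420, 2510, 4060 and 3840 CPM in the marine fish and at 164, 219, 131 and 181 CPM in the freshwater fish, which gave -4.20 log2 units (SE 0.67, edgeR adjusted p = 0.00074). Both genes ranked the 8 fish in the same order, with kept marine fish 4 highest and kept freshwater fish 4 lowest. Both passed the threshold in 31 of 31 alternatives. In moved marine fish they reached 66700 and 48900 CPM in fish 2, the shallowest library, and the other moved marine fish were at 3540 to 19200 and 2650 to 14200 CPM. Moved freshwater fish were at 159 to 203 and 192 to 240 CPM. Reads shared between similar gene copies cannot be examined in the counts.

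**Figure D3:**
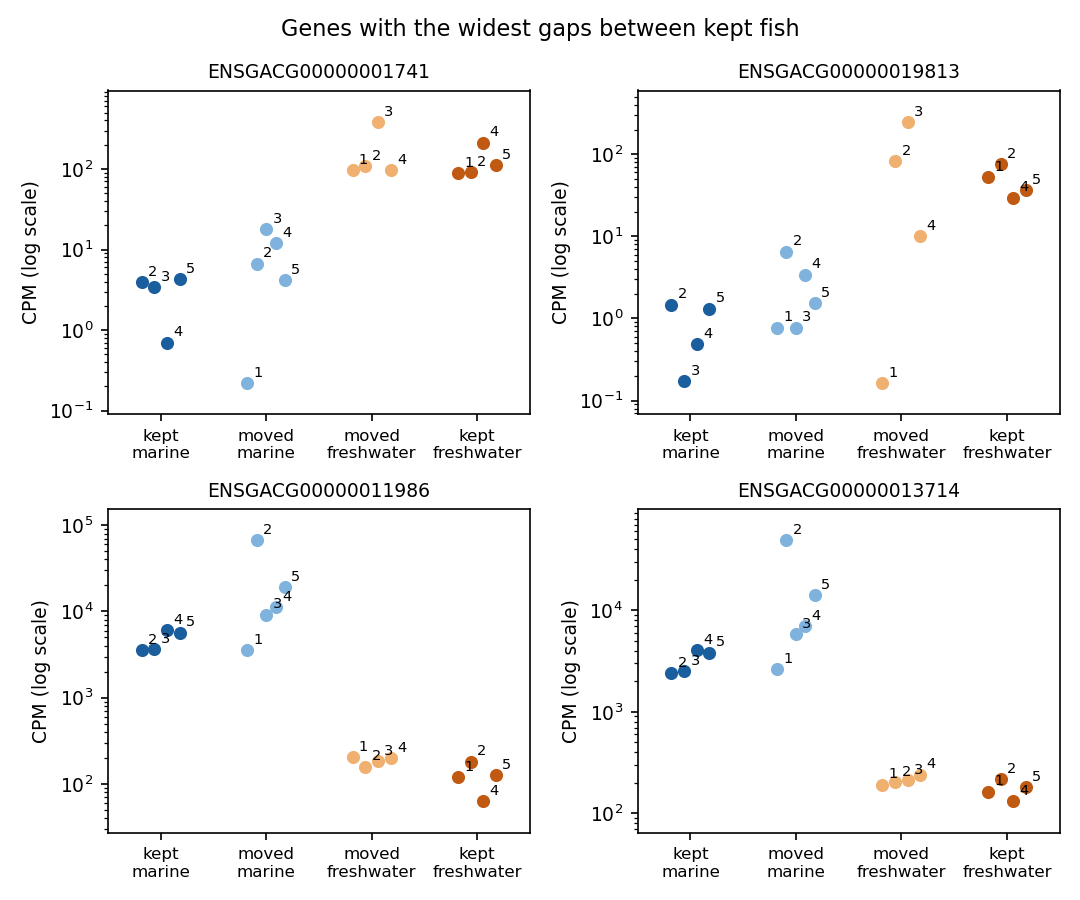
CPM (log scale) in each of the 17 fish (points, with the fish number) for the 4 genes with the widest gaps between kept groups. The upper 2 genes are high in kept freshwater fish (29.7 to 213 CPM) and at most 4.26 CPM in kept marine fish; the lower 2 are at 2420 to 6030 CPM in kept marine fish and at most 219 CPM in kept freshwater fish.

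Genes present in one kept group and near absent from the other were rare. Averages of 5 CPM or more in a kept group with every fish of the other kept group under 0.5 CPM were found for 2 genes high in freshwater fish (means of 7.67 and 9.55 CPM) and for 7 genes high in marine fish (means of 5.8 to 125 CPM). All 9 were among the called genes, as the criterion makes likely. None of the 7 was on in every marine fish: each had at least 1 kept marine fish under 0.5 CPM. Of the 2 freshwater genes, 1 was above 1 CPM in all 4 kept freshwater fish and the other had a fish at 0.0349 CPM. In moved fish, 4 of the 7 marine genes were also under 0.5 CPM in every freshwater fish, and 3 averaged 5 CPM or more in marine fish. Of the 2 freshwater genes, 0 stayed under 0.5 CPM in every moved marine fish (highest 2.12 CPM). Their means in moved freshwater fish were 0.535 and 11.2 CPM. Without kept marine fish 5, 3 genes high in freshwater fish and 7 high in marine fish met the criterion, and 6 of these 7 had a kept marine fish under 0.5 CPM. Presence and absence of a transcript therefore varied among fish of the same population in most of these genes.

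The spread among fish of a group was small beside such genes. Among genes that averaged 5 CPM or more in the group, the median range between the highest and the lowest fish was 0.514 log2 units in kept freshwater fish (12633 genes) and 0.547 in kept marine fish (12392 genes). A range over 3 log2 units was seen for 114 and 94 genes, and over 5 log2 units for 27 genes in each group. Kept marine fish 2, 3 and 4 alone had a median range of 0.398, with 69 of 12278 genes over 3 log2 units and 21 over 5, as fewer fish give narrower ranges. Fitted separately, kept freshwater fish had a biological coefficient of variation of 27.8% and kept marine fish of 29.9%. It was 22.8% in moved freshwater and 39.2% in moved marine fish, while the main fit shares each gene's spread over all groups.

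The moved fish hold the same populations with the waters exchanged, and share no library with the kept fish. A difference set by population alone would keep its direction there, and one set by the present water alone would turn round. A difference set by depth could keep its direction as well, as freshwater libraries were the deeper in kept and in moved fish. Moved freshwater libraries held 23736661 to 27949237 counts and moved marine libraries 6932688 to 16108405. The transfer lasted 4 days, and slower changes or responses to the transfer itself were not tested. The signs below are therefore a description and do not assign a gene to population or water. By the same edgeR test, 3308 genes (18.1% of those tested) differed between moved freshwater and moved marine fish. The count depended on the moved freshwater fish: without fish 1, 2 or 4 it was 2120, 2101 and 1973. Of the 3517 genes called in kept fish, 2942 (83.7%) had the same sign in moved fish, against 69.2% of all tested genes. The share was 82% for the higher and 85.7% for the lower genes. It was smaller among the 353 genes over 4-fold, at 75.6%. Without kept marine fish 5 the share for all called genes was 84.2%, and with all libraries thinned to equal depth it was 82.5%. When the kept and the moved fish were fitted apart, so that the comparisons shared no estimate of spread either, it was 80.8%. Fitted apart, the moved fish gave 2181 called genes.

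Genes called in both kept and moved fish numbered 1309. In 1234 of them the direction was the same (698 higher and 536 lower in freshwater fish), which is 35.1% of the genes called in kept fish and 37.3% of those called in moved fish. Since passing in both comparisons favours like sizes, their medians are a description: the 698 higher genes had medians of 0.888 log2 units in kept and 0.856 in moved fish, and the 536 lower genes -0.814 and -0.774. Over all tested genes, both differences had a Pearson correlation of 0.5 and a Spearman correlation of 0.51, given as a description of 18238 genes that share libraries and are not independent.

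In the remaining 75 genes (2.13% of the genes called in kept and 2.27% of those called in moved fish) the direction was opposite. Of these, 62 were higher in kept freshwater than in kept marine fish and lower in moved freshwater than in moved marine fish, so that the group held in fresh water was the higher in both pairs, with medians of 1.54 and -1.18 log2 units. In the other 13 the group held in marine water was the higher in both pairs, with medians of -0.881 and 1.1. Within a population, water and transfer cannot be told apart, and the 75 genes were not tested within populations as a set. Among the genes over 4-fold in kept fish, 124 were called with the same and 25 with the opposite direction in moved fish. Without kept marine fish 5 there were 1367 genes with the same and 76 with the opposite direction. The number of opposite genes was the less certain: it was 39 without moved freshwater fish 4 and 111 without moved marine fish 5.

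**Figure D4:**
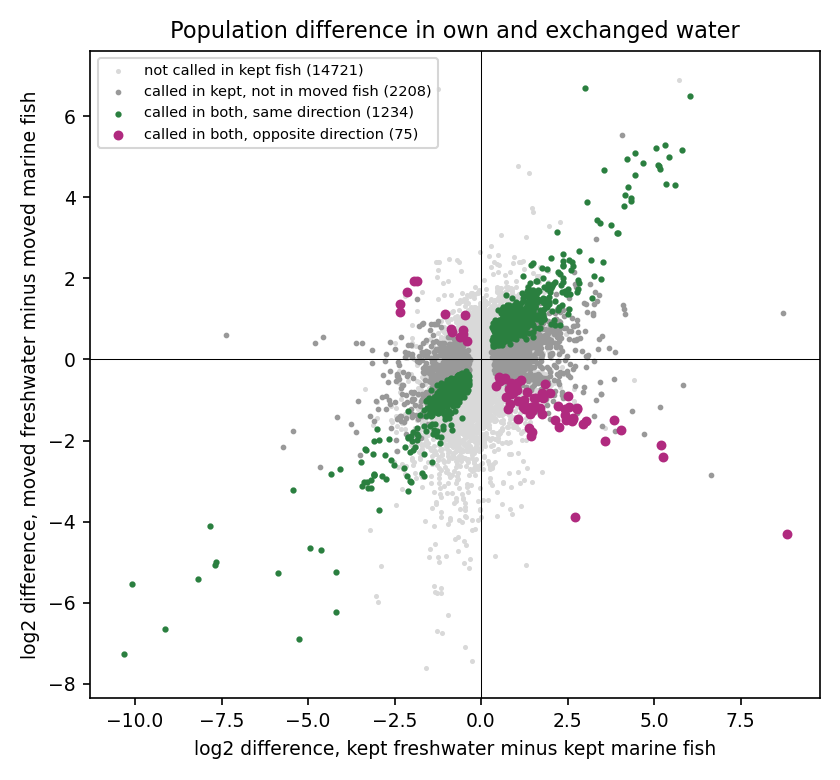
Log2 difference between freshwater and marine fish in kept fish (horizontal axis) and in moved fish (vertical axis) for 18238 genes; green points are 1234 genes called in both with the same direction, purple points 75 genes called in both with opposite directions, dark grey points genes called in kept but not in moved fish. Most genes called in both lie along the rising diagonal, and 62 of the purple points lie at the lower right.

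The position of moved fish between the kept groups went by population, more clearly for moved freshwater than for moved marine fish. Moved freshwater fish lay at 0.796 to 0.835 (mean 0.814 ± 0.0161, SD, n = 4), within the range of kept freshwater fish (0.87 ± 0.128, n = 4). Moved marine fish lay at 0.216 to 0.42 (0.337 ± 0.0755, n = 5), above kept marine fish 2, 3 and 4 and on both sides of kept marine fish 5 (0.169 ± 0.141 for the 4 kept marine fish). No moved fish lay between 0.42 and 0.796. Without kept marine fish 5 the means were 0.852 and 0.425, and at equal depth they were 0.821 and 0.36. By distance, the nearest kept fish of every moved freshwater fish was a kept freshwater fish (0.474 to 0.496), and that of every moved marine fish was kept marine fish 5 (0.494 to 0.922). Mean distances of moved freshwater fish were 0.529 to 0.552 to kept freshwater and 0.754 to 0.795 to kept marine fish. Those of moved marine fish 1 to 5 were 0.841, 1.03, 0.679, 0.75 and 0.82 to kept freshwater fish. To kept marine fish they were little smaller in most, at 0.749, 1.01, 0.644, 0.705 and 0.684.

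The same genes can be followed through the comparisons that involve a moved group. These share fish with the own-water comparison, so their values are set side by side and not read as support. For the 1948 genes higher in kept freshwater fish, the median log2 difference between populations was 0.964 in own waters, 0.795 with both populations in marine water, 0.622 with both in fresh water and 0.48 in exchanged waters. Their median difference between fresh and marine water was 0.116 within freshwater fish and 0.337 within marine fish. For the 1569 lower genes the population medians were -0.81, -0.791, -0.434 and -0.428 in the same order, and the water medians were -0.00737 within freshwater fish and -0.344 within marine fish. The own-water medians of both lists were 1.06 and -0.886 without kept marine fish 5. Over all tested genes the medians of the 6 comparisons lay between -0.023 and 0.021.

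The genes with the widest gaps between moved groups can be read in the kept fish, which entered their choice only through the spread that all groups share in the fit. The first 2 higher in moved freshwater fish were ENSGACG00000014959 and ENSGACG00000020323. In kept freshwater fish 1, 2, 4 and 5 ENSGACG00000014959 was at 58.7, 77.2, 174 and 79.9 CPM, and in kept marine fish 2, 3, 4 and 5 at 3.24, 3.27, 3.7 and 4.82 CPM. The log2 difference was 4.69 in kept fish (SE 0.53, edgeR adjusted p = 8.1e-05) and 4.85 in moved fish (SE 0.50). ENSGACG00000020323 was at 68.2, 86, 239 and 46.1 CPM in kept freshwater fish and at 2.75, 2.92, 1.45 and 2.94 CPM in kept marine fish, so that kept freshwater fish were higher by 5.45 log2 units (SE 0.68, edgeR adjusted p = 0.00013). Neither gene overlapped between the populations in either water. The first 2 lower genes in moved freshwater fish were again ENSGACG00000011986 and ENSGACG00000013714.

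The difference between populations in kept fish minus that in moved fish was tested as a single contrast. It equals the difference between fresh and marine water summed over both populations. It is not a test of whether populations differ more in one water than in the other. A response to the transfer cancels in this sum only if it is equal in both populations, and otherwise stays in it. By edgeR 369 genes (2.02% of those tested) passed, 259 with a positive and 110 with a negative value, and 2786 genes had an unadjusted p below 0.05. The median size was 1.65 log2 units. In simulated counts with 200 genes changed in kept freshwater fish alone, changes of the same size were recovered less often for this contrast than for own waters. A change with water in both populations was not simulated. DESeq2 called 821 genes, and without kept marine fish 5 edgeR called 431. Without 6 other fish the count moved by over 1.5 times: it was 561 without moved marine fish 5, 206 without kept freshwater fish 1, 219 and 225 without kept marine fish 2 and 3, and 238 and 235 without moved freshwater fish 3 and 4.

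By group mean, the named genes with positive values were highest in kept freshwater fish and lowest in kept marine fish. ENSGACG00000000206 was at 1180, 523, 966 and 392 CPM in kept freshwater fish 1, 2, 4 and 5 and at 7.95, 6.19, 48.5 and 17 CPM in kept marine fish 2, 3, 4 and 5, a lead of 5.26 log2 units for freshwater fish (SE 0.83, edgeR adjusted p = 0.00068). In moved fish the order was turned, at -2.39 (SE 0.71, edgeR adjusted p = 0.029), with 28.5 to 52.6 CPM in freshwater and 23.6 to 366 CPM in marine fish, of which fish 5 was the only one below any freshwater fish. The difference between these values was 7.65 (SE 1.09, edgeR adjusted p = 0.001). ENSGACG00000005001 was at 25.1, 4.6, 19.7 and 21.8 CPM in kept freshwater fish and at 0.856, 0.344, 0.429 and 0.304 CPM in kept marine fish, and its difference between kept and moved fish was 7.33 (SE 0.96, edgeR adjusted p = 0.00064). In moved fish this gene was at 0.0704 to 1.84 CPM in freshwater and 1.32 to 8.36 CPM in marine fish, so that moved fish overlapped both kept groups. All counts of both genes are multiples of 2, for which the sources used here give no reason, so the number of reads behind them is uncertain.

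Among negative values, the first gene named was scarce in kept freshwater fish and present in every moved fish and every kept marine fish. ENSGACG00000000730 was at 0.33, 0.0698, 0.0756 and 0.169 CPM in kept freshwater fish and at 4.71, 3.55, 3.7 and 6.19 CPM in kept marine fish. The log2 difference was -4.81 (SE 0.38, edgeR adjusted p = 4.8e-06). Both moved groups overlapped or exceeded kept marine fish, at 5.79 to 7.53 CPM in freshwater and 3.42 to 7.49 CPM in marine fish, and the difference between kept and moved was -5.22 (SE 0.46, edgeR adjusted p = 2.7e-05). That sum came from the freshwater fish, in which fresh minus marine water was -5.31 (SE 0.37, edgeR adjusted p = 5.7e-07). In marine fish it was 0.08 (SE 0.25, edgeR adjusted p = 0.88). A response of freshwater fish to the transfer would give the same values, and cannot be told apart from one to the water. ENSGACG00000006392 was at 3.22, 4.39, 2.72 and 2.06 CPM in kept freshwater fish and at 11.8, 17.6, 9.7 and 8.52 CPM in kept marine fish. Its log2 difference was -1.93 in kept fish (SE 0.40, edgeR adjusted p = 0.0041) and 1.94 in moved fish (SE 0.38, edgeR adjusted p = 0.0032), so that in both pairs the group in marine water was higher. Within populations, fresh minus marine water was -2.75 in freshwater fish (SE 0.40, edgeR adjusted p = 0.0032) and -1.12 in marine fish (SE 0.38, edgeR adjusted p = 0.1). All 4 genes passed in 30 of 30 alternatives.

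**Figure D5:**
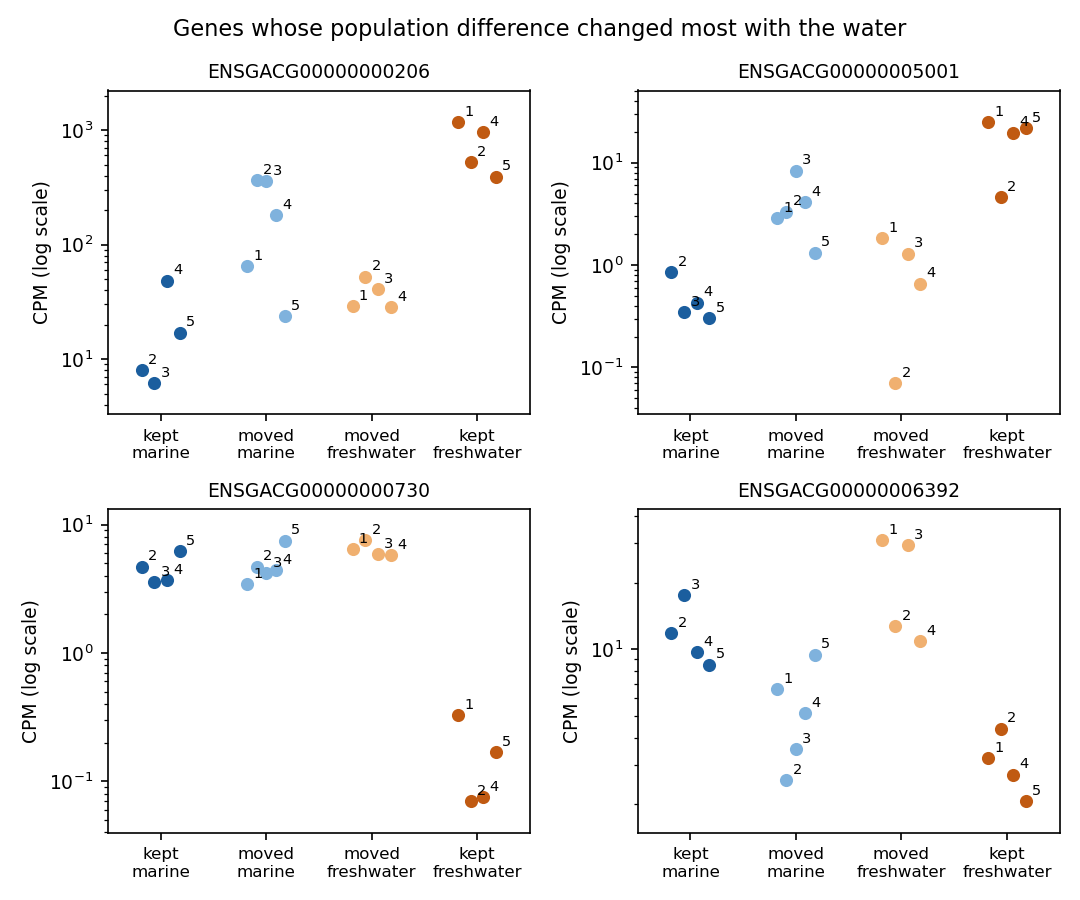
CPM (log scale) in each of the 17 fish (points, with the fish number) for the 4 genes named for the largest positive (upper) and negative (lower) change of the population difference between kept and moved fish. Kept freshwater fish have the highest group mean for the upper genes (4.6 to 25.1 and 392 to 1180 CPM) and the lowest for ENSGACG00000000730 (at most 0.33 CPM in a fish).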

How the data were processed

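Whole-number read counts per gene, not normalized, were deposited for 17 gill libraries. Libraries were made with NEBNext reagents from bead-purified polyadenylated RNA, per the labels' protocols. CASAVA 1.8.2 and TopHat2 2.1.0 are the tools named, per the submitters' processing notes. Not given in the sources used here are the counting tool, the genome build and the annotation, and no coordinates or sequences are printed. Among 17449 genes with over 200 counts in all, 27.9% had counts that share a divisor in all fish; the origin is not given.

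Groups were taken from the labels. Genes were kept with edgeR's filterByExpr (minimum count 10), and TMM factors were applied. A single model with the 4 groups and no covariates was fitted (edgeR 4.0.16, glmQLFit and glmQLFTest, Benjamini-Hochberg at 0.05), so that all fish share each gene's spread. The scripts were tested on simulated data. In each simulation 200 of 18238 genes were changed, in a single group, which is far fewer than the genes called for own waters. Recovery can differ where more genes change, so the rates describe this setting and not the real comparisons. Of simulated 1.5-fold, 2-fold and 4-fold changes, 5.88%, 38.5% and 82.1% were recovered for own waters. For kept minus moved it was 0%, 12.2% and 73.8%. False calls were 7 of 91 for own waters and 1 of 55 for kept minus moved. The current form of glmQLFit was preferred to the older form, kept as an alternative, with the counts of an earlier analysis of these data known. Standard errors are the log2 difference over the square root of F. For positions and distances, CPM were put on a log2 scale with 2 as prior count. Alternatives were run with DESeq2 1.42.0, limma 3.58.1 and R 4.3.3, and figures and permutation tests with Python 3.11.15, scipy 1.17.1 and matplotlib 3.10.9.

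None of the 22456 IDs matched the 52177 genes of the reference table (assembly fGasAcu3.hap1.1), so 10 lists of ion transport, hormone, stress and cell type marker genes could not be examined. Named genes had an adjusted p below 0.05, an average of 5 CPM or more in the highest group, and groups whose fish did not overlap (for the kept minus moved difference, between kept and moved fish of at least 1 population). They were ranked by the gap in log2 CPM (for that difference, by its size); the first 2 in each direction are given, by ID. Comparisons, lists and rule were chosen with earlier results of these data known. Leaving out both fish numbered 5, the older edgeR fit, positions under the alternatives, and descriptions without kept marine fish 5 were alternatives chosen after seeing the data.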

Additional observations from a re-analysis of the deposited data

Results flagged for a closer look

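Samples far from the rest of their group were looked for in 44 sets of values (the positions and the 10 named genes, in 4 groups), and 6 were found. Chance gives about 1 in 20 for independent sets. The named genes were chosen in these same fish and some vary together, so that rate need not hold here. Kept marine fish 5 lay at 0.379 between the kept groups, with the other kept marine fish at 0.0816 to 0.115. Kept marine fish 4 was low for ENSGACG00000001741 (0.697 CPM) and ENSGACG00000020323 (1.45 CPM). Kept freshwater fish 2 was low for ENSGACG00000005001 (4.6 CPM). Moved freshwater fish 3 was high for ENSGACG00000001741 (385 CPM), and moved marine fish 1 was low for ENSGACG00000014959 (1.77 CPM).

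The population difference differed between kept and moved fish, by a test of that change, for 369 genes. Among those named, it was 7.65 log2 units for ENSGACG00000000206, 7.33 for ENSGACG00000005001, -5.22 for ENSGACG00000000730 and -3.87 for ENSGACG00000006392.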

How the results depend on the processing

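The own-water count of 3517 stayed within 1.5 times in all 14 alternatives other than leaving out single fish. The share of called genes that were higher in freshwater fish was 52.3% with DESeq2 size factors, 52.9% with upper-quartile scaling, 51.5% with a stricter low-count filter, 51.4% with DESeq2, 51.9% with limma voom, 52.7% at equal depth, 52.2% without moved marine fish 1 and 2 and 53.2% without the kept fish numbered 5. Fitting only the groups compared gave 3005 own-water genes, 2181 genes in moved fish, 80.8% with the same sign and 49 opposite genes. Without moved marine fish 1 and 2 there were 4210 own-water genes, 2036 genes in moved fish, 237 for kept minus moved and 48 opposite. DESeq2 gave 821 for kept minus moved, and the stricter filter put moved freshwater fish at 0.839. The cause of these shifts was not tested.

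With the fish number as a replicate block, edgeR called 2388 own-water genes, 991 of them lower and 58.5% higher, 817 shared with moved fish in the same direction, and 198 for kept minus moved. The labels make same-numbered fish separate animals. Correlations of deviations were -0.27 to 0.23 over the 21 same-numbered pairs of all groups. They were -0.27 to -0.098 over the 3 kept pairs, with the kept fish numbered 5 at -0.27. A positive value marks likeness, so an effect of the number with opposite directions in the groups would not show as likeness. Whether the number carries such an effect was not tested. Kept and moved marine fish 3, 4 and 5 reached 0.19, 0.19 and 0.23 but fish 2 was at -0.19, and 0 of 6 kept fish were most like their own number.

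Leaving out each fish in turn gave 2179 to 4091 own-water genes, 1305 to 2232 higher and 827 to 1859 lower ones, with 52.6% to 62.0% higher. It gave 1973 to 3438 genes in moved fish and 206 to 561 for kept minus moved, 80.9% to 85.0% with the same sign, 836 to 1367 genes in the same and 39 to 111 in the opposite direction, and mean positions of 0.768 to 0.852 for moved freshwater and 0.315 to 0.425 for moved marine fish. Of the named genes' values, 367 kept their direction and side of the threshold and 1 missed it (ENSGACG00000019813, limma voom).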

Other observations

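Both abundant genes that were lower in kept freshwater fish kept a narrow ratio to each other in the marine population. The CPM of ENSGACG00000011986 divided by that of ENSGACG00000013714 was 1.46 to 1.49 in kept marine fish and 1.33 to 1.6 in moved marine fish, where their levels varied widely. In kept freshwater fish it was 0.477 to 0.824 and in moved freshwater fish 0.788 to 1.06. These genes were singled out for this ratio after their values were seen, and no test was made of it.

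Among genes higher in freshwater fish, ENSGACG00000001741, ENSGACG00000014959 and ENSGACG00000020323 were each highest in kept freshwater fish 4 and in moved freshwater fish 3. In the moved marine group each was highest in fish 3 and lowest in fish 1. Other named genes higher in kept freshwater fish did not share this order. ENSGACG00000019813 was highest in moved freshwater fish 3 too, but highest in kept freshwater fish 2, lowest in kept freshwater fish 4 and highest in moved marine fish 2. ENSGACG00000000206 and ENSGACG00000005001 were highest in kept freshwater fish 1.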
